A study of Mus musculus with 2 samples.

Results

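Arterial endothelial cells line the vessels that carry blood into the dental pulp, the soft tissue inside the tooth. They were selected here on measured values: endothelial cells in which the summed UMIs (unique molecular identifiers, 1 per captured RNA molecule) of the 5 arterial genes Gja5, Stmn2, Mecom, Jag2 and Vegfc exceeded both the sum of 5 genes of Esm1-type capillary cells (Esm1, Adamtsl2, Col13a1, Mcf2l, Cd300lg) and the sum of 4 genes of venous-type cells (Vwf, Selp, Aplnr, Slco2a1). A cell counted as endothelial with a UMI in at least 3 of 6 endothelial genes (Pecam1, Cdh5, Emcn, Egfl7, Tie1, Esam) and 0 UMIs of Ptprc, Sox10 and Notch3, which mark immune, glial and mural cells. This gave 92 arterial cells of 487 endothelial cells and of 4012 cells kept in all.

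The study compared pulp of C57BL/6 mice at postnatal day 12 between a control genotype and an endothelial knockout of Vegfr2, the receptor gene whose symbol is Kdr. Cells that excluded propidium iodide, a dye that enters dead cells, were sorted and sequenced as 10x 3' single-cell libraries, 1 per genotype. Of the arterial cells, 62 came from the control library and 30 from the knockout library. The sources used here do not give the Cre driver of the knockout, the genotype of the control animals or how many animals stand behind each library.

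Arteries and veins differ in their endothelium from early in development, when VEGF and Notch signals set an arterial programme that includes Sox17, the Notch ligand Dll4, the ephrin Efnb2 and the connexins Gja4 and Gja5. Larger arteries also carry a wall rich in elastic fibres, to which their endothelium contributes elastin (Eln) and matrix Gla protein (Mgp), an inhibitor of calcification. VEGFR2 is the main signalling receptor for VEGF-A in endothelium, and cells at the tip of a sprout use it together with Notch and the chemokine receptor Cxcr4.

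With 1 library per genotype, differences between the genotypes could not be set against replicates, and none was tested. Levels are UMIs of a gene summed over the cells of a type, per 1000000 UMIs of that type (CPM), and ratios are knockout over control. The bounds in parentheses are exact 95% intervals that cover counting error only. The knockout library was shallower: arterial cells held a median of 9254 UMIs (741439 in all) in control, against 7841 (271773 in all) in knockout. The 4 deepest cells of each library held 22.1% (control) and 32.4% (knockout) of the arterial UMIs. The matrices came from different Cell Ranger versions, and this difference cannot be told apart from genotype. The libraries shared 3 barcodes, 0 of them among arterial cells. Cells with an Xist UMI and none of 4 Y-linked genes numbered 42 and 16, control before knockout, and cells with the opposite pattern 9 and 8, so the sex mix differed between the libraries.

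The genes of the rule are described without a test, since they chose the cells. The arterial sum was 15.5 UMIs at the median in each library, against a median of 1 for the capillary sum in each library and of 1 (control) and 2 (knockout) for the venous sum. Of the control cells, 47 of 62 held at least 3 of the 5 arterial genes, as did 26 of 30 knockout cells. Mecom, a transcription factor, stood at 815 and 541 CPM in the control and the knockout library. Stmn2, a tubulin-binding protein, stood at 421 and 375 CPM, and Jag2, a Notch ligand, at 398 and 493 CPM. Vegfc, the growth factor for lymphatic vessels, stood at 357 and 283 CPM, and Gja5, connexin 40, at 263 and 232 CPM. The sum led by only 1 UMI in 10 control cells and 1 knockout cell. Just outside the rule, 23 control and 17 knockout endothelial cells fell short by at most 1 UMI.

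Markers of other cell types were checked in the same cells as whole lists. Smooth muscle markers (7 genes) had 34 UMIs in control and 13 in knockout arterial cells, with Myh11, Cnn1, Des, Actg2 and Lmod1 at 0 in both libraries, and pericyte markers (7 genes) had 40 and 5. Red blood cell markers were at 0, and the 8 glial markers stood at 64.7 and 129 CPM against 21414 and 34464 CPM in glia of the same libraries. The 8 immune markers stood at 135 and 272 CPM against 26548 and 30050 CPM in immune cells. The exceptions were in the control library. A single control cell held 557 of the 635 mesenchyme UMIs (8 genes, at 856 and 125 CPM), while the next held 6, and 3 control cells held at least 5 lymphatic UMIs (mainly Mmrn1 and Prox1), which were at 0 in the knockout library. Another control cell held 461 UMIs of proliferation genes, against at most 41 in any other control cell and 22 in any knockout cell. Leaving out the control cells that carried these mesenchyme or lymphatic markers moved the knockout over control ratio by more than 1.5 times for Apln, Emilin1, Nrp2, Pgf and Trp53i11 among the 195 listed and ranked genes other than Kdr, and those values stand beside the genes.

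Genes that the rule did not use set these cells apart from the other endothelial cells in both libraries. Of 18 arterial identity genes, 15 had at least 30 UMIs in each library over the endothelial cells, and 11 of the 15 were at least 2-fold higher in arterial cells in both libraries (14 in the control library, 11 in the knockout library). Over all 5130 genes measured in both libraries, 223 were at least 2-fold higher in the control library, 291 in the knockout library and 127 (2.48%) in both. Over the genes measured in the library itself, the shares were 5.25% of 9715 genes in control cells and 5.67% of 5135 genes in knockout cells. The median log2 ratio of the list was 2.61 (control) and 2.05 (knockout), against 0.03 and 0.02 over all genes. These genes are read from the same cells that the rule sorted, so the ratios describe the class and are no independent test of it.

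Among transcription factors, Sox17 stood at 687 CPM in control arterial cells against 173 in the other control endothelial cells, a ratio of 3.97 (3.52 to 4.46). In the knockout library the ratio was 2.72 (2.23 to 3.32). Hey1, a nuclear target of Notch, had ratios of 3.81 and 4.14, control before knockout. Among secreted and surface signals, the chemokine Cxcl12 was 7.18-fold and 5.86-fold higher in arterial cells, the semaphorin Sema3g 18.3-fold and 12.9-fold, and the netrin receptor Unc5b 6.09-fold and 6.04-fold. Gja4, connexin 37, was 7.97-fold and 14.1-fold higher. The kinase Bmx was 15.2-fold higher in the control library and 5.8-fold higher in the knockout library. The 4 measured identity genes that missed the 2-fold mark in a library were Nrp1, at 0.799 and 0.88, Efnb2, at 2.39 and 1.64, Dll4, at 2.86 and 1.25, and the vasoconstrictor Edn1, at 12.1 and 0.506. In the knockout library Edn1 was thus higher in the other endothelial cells, and its ratio between libraries in venous-type cells was 44.5. Nrp1, a VEGF co-receptor, was not raised in arterial cells of either library.

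**Figure D1:**
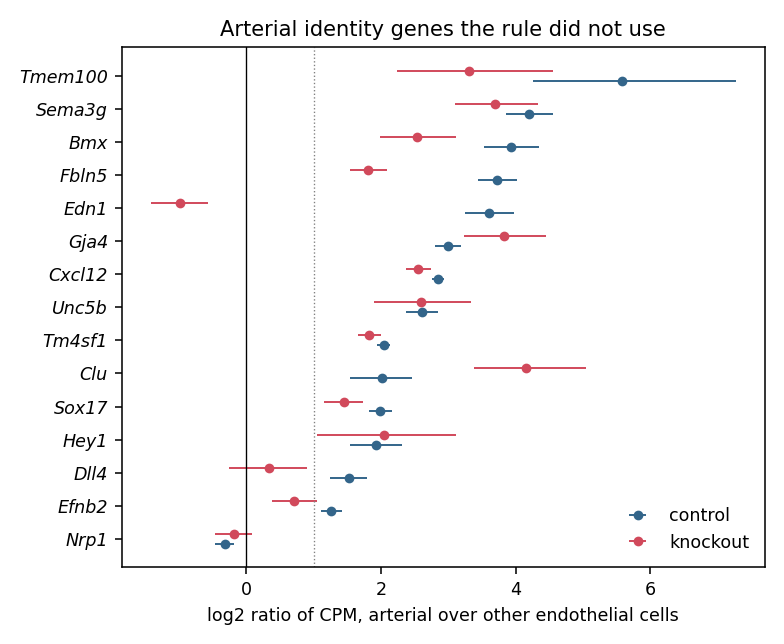
Ratio of CPM in arterial over other endothelial cells (log2, x axis) for the measured arterial identity genes outside the selection rule, in the control (blue) and knockout (red) library, with exact 95% counting intervals. The dotted line marks 2-fold. Cxcl12, Gja4, Sema3g and Unc5b lie beyond it in both libraries, whereas Edn1 lies on opposite sides of 0.

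Among the 5029 genes open to this ranking, ordered by the interval bound nearest 1 in the weaker library, the 12 leading genes of arterial cells outside the rule were Nebl, Col8a1, Ptprr, Pcsk5, Sema3g, Plcg2, Gja4, Amd1, Htra1, St8sia6, Atp13a3 and Cxcl12. Nebl, an actin-binding protein, was 71.6-fold higher in arterial than in other endothelial cells in the control library and 117-fold higher in the knockout library. Pcsk5, a proprotein convertase, was 29.2-fold and 20.1-fold higher, and Col8a1, a short-chain collagen of vessel walls, 19.7-fold and 70.04-fold. The tyrosine phosphatase Ptprr was 13.7-fold and 60.4-fold higher, the phospholipase Plcg2 16.5-fold and 24.2-fold, and the sialyltransferase St8sia6 16.7-fold and 12.1-fold. The knockout folds of Nebl, Col8a1, Ptprr and Plcg2 rest on very few UMIs in the other endothelial cells (3.05, 1.52, 3.05 and 4.57 CPM). Their intervals were 31.6 to 981, 11.6 to 2861, 15.9 to 512 and 7.51 to 124. Each overlapped the control interval, so a larger fold than in control is not shown. Amd1 and Atp13a3 both belong to polyamine handling, Amd1 as the decarboxylase that feeds polyamine synthesis and Atp13a3 as a polyamine transporter. Amd1, whose near-identical copy Amd2 could share its reads, was 11.4-fold and 11.2-fold higher, and Atp13a3 was 8.45-fold higher in the control library and 8.45-fold higher in the knockout library. Htra1, a secreted protease, was 8.37-fold and 10.2-fold higher. All 12 were protein-coding genes.

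The promoters of the 2 arterial connexins are shown because one gene is part of the rule and the other is among the 12 leading genes outside it. Gja4 lies on the minus strand of chromosome 4 (127311421 to 127314039, GRCm38, GENCODE) and Gja5 on the plus strand of chromosome 3 (96904693 to 97077416). The 250 bases before a RefSeq transcript start, which for Gja4 is the start of the gene and for Gja5 lies inside the GENCODE interval of the gene rather than at its first base, come from RefSeq windows on GRCm38.p6, chr4:127314040-127314289 for Gja4 and chr3:97032152-97032401 for Gja5, 5′ to 3′ on the gene's strand. Capitals mark ACAAT, a core that SOX factors such as Sox17 can bind, searched as ACAAT and as ATTGT on the other strand.
Gja4: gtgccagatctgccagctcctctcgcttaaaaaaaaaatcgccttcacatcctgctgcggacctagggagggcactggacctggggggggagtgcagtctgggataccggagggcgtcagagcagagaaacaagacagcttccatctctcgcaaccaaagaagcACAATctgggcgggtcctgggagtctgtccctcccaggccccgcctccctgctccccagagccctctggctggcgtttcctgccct
Gja5: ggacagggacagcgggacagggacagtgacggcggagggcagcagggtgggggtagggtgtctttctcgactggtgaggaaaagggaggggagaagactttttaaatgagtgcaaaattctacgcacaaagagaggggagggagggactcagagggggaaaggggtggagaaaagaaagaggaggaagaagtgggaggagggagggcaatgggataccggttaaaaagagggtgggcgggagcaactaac
The Gja4 window held the core 1 time and the Gja5 window 0 times. Of all 32851 windows, 27.7% held it, and of the 17 windows found for 11 of the 12 leading genes, 3 did (17.6%).

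Arterial cells made up 17.3% (13.5% to 21.6%) of the control endothelial cells and 23.4% (16.4% to 31.7%) of the knockout endothelial cells, a ratio of 1.36 (0.847 to 2.13) that counting error covers. After every endothelial cell was thinned to 2000 UMIs, with 26 control and 30 knockout cells too shallow to enter, the shares were 15.3% (51 of 333 cells) and 26.5% (26 of 98). Set against all kept cells, arterial cells were 2.66% (control) and 1.78% (knockout), a ratio of 0.670 (0.418 to 1.05). The whole endothelial class had a ratio of 0.493 (0.400 to 0.605) over the same denominator. Esm1-type capillary cells numbered 92 and 21, or 25.6% and 16.4% of endothelial cells, and venous-type cells made up 53.5% and 53.1%. In arterial cells the genes of the rule had ratios of 0.664 (Mecom), 0.793 (Vegfc), 0.881 (Gja5), 0.892 (Stmn2) and 1.24 (Jag2). These genes chose the cells, so the ratios describe the class and do not measure a difference between libraries. The shares depend on the levels of those genes.

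**Figure D2:**
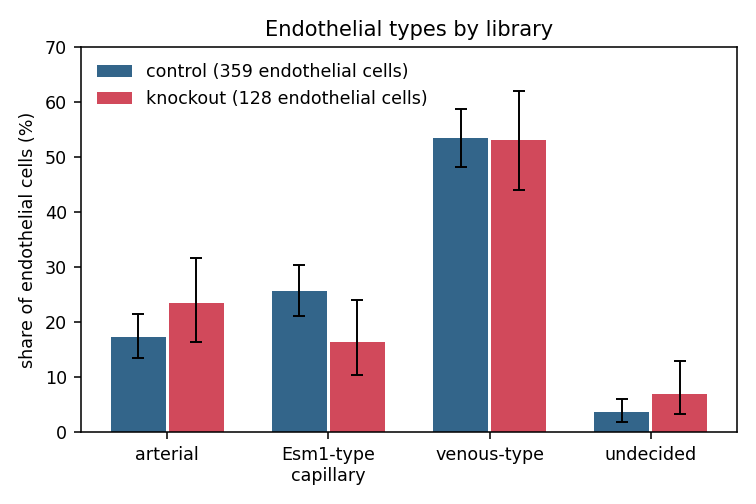
Share of endothelial cells (y axis, %) that fell into each type, in the control (blue) and knockout (red) library, with exact 95% binomial intervals that cover counting error only. The arterial intervals, 13.5% to 21.6% and 16.4% to 31.7%, overlap.

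Across the 5516 genes with at least 30 UMIs over the arterial cells of both libraries, 154 (2.79%) were at least 2-fold higher in the knockout library and 276 (5.0%) at least 2-fold lower, with a median log2 ratio of -0.0021. These shares are the background for the counts of the gene lists.

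Kdr, the gene named in the knockout (chromosome 5, 75932827 to 75978458, minus strand, GRCm38, protein-coding), was read first. In arterial cells it stood at 736 CPM in control cells (546 UMIs) and 309 CPM in knockout cells (84 UMIs), a ratio of 0.42 (0.33 to 0.529). The sources used here do not say which part of the gene is deleted, and 3' reads can lie outside it, so the remaining UMIs do not check the labels. Control cells held Kdr UMIs in 53 of 62 cases and knockout cells in 23 of 30. With cells thinned to 2000 UMIs, 64.3% of 56 control cells held a Kdr UMI, against 26.9% of 26 knockout cells. Glia at that depth did so in 2.64% and 0.321% of cells, and their median depths before thinning were 12478 and 9016 UMIs. Among cells with at least 2000 UMIs, the control cells held a median of 5.82 Kdr UMIs per 10000 (quartiles 2.71 and 9.62, highest 36.5) and the knockout cells 1.97 (quartiles 1.1 and 3.15, highest 15.3). The ranges overlapped from 0 upward, but the knockout median lay under the lower control quartile. Of the knockout Kdr UMIs, 23.8% sat in 1 cell, and without the top cell of each library the ratio was 0.344. In Esm1-type capillary cells the Kdr ratio was 0.791 (0.694 to 0.900) and in venous-type cells 0.837 (0.735 to 0.950). The arterial interval lay below both. Outside endothelium, at lower levels, Kdr differed as well. Its ratio was 0.104 in mural cells (103 and 10.7 CPM), 0.182 in glia, 0.237 in immune cells and 0.572 in the remaining non-endothelial cells. The arterial Kdr ratio was thus not the lowest of all classes, and the cause of the differences outside endothelium was not tested.

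The other VEGF receptors were closer to 1. Flt1, a VEGF-A receptor that largely acts as a sink for the ligand, stood at 1095 and 1019 CPM, a ratio of 0.931 (0.809 to 1.07), and the co-receptor Nrp1 at 661 and 548 CPM, a ratio of 0.83 (0.686 to 0.999). Nrp2, a co-receptor more typical of veins and lymphatics, had 66 and 16 UMIs and a ratio of 0.661 (0.357 to 1.15), which was 1.04 without the control cells that carried markers of another type. Flt4 had only 18 and 8 UMIs and fell under the minimum of 30. Of the 4 measured members, 0 were at least 2-fold higher and 1, Kdr, at least 2-fold lower, with a median log2 ratio of -0.43.

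Mgp and Eln, of the elastic fibre list, were each more than 2-fold higher in knockout arterial cells. Mgp stood at 410.0 CPM in control cells (304 UMIs) and 1453 CPM in knockout cells (395 UMIs), a ratio of 3.54 (3.04 to 4.13). Eln stood at 731 CPM in control cells (542 UMIs) and 1715 CPM in knockout cells (466 UMIs), a ratio of 2.35 (2.07 to 2.66). Fbln5, a fibulin that helps assemble elastin, stood at 498 and 957 CPM, a ratio of 1.92 (1.63 to 2.26), and Fbln2 at 1458 and 2178 CPM, a ratio of 1.49 (1.35 to 1.65). Htra1 had a ratio of 1.55 (1.19 to 2.0). On the other side, Emilin1 had a ratio of 0.53 (0.199 to 1.21) (0.804 without the control cells that carried markers of another type), Ltbp1 of 0.646 (0.275 to 1.36) and Ltbp4 of 0.964 (0.835 to 1.11). Of 10 measured members of 15, 2 were at least 2-fold higher (Eln and Mgp), 0 at least 2-fold lower and 7 above 1, with a median log2 ratio of 0.60. The list also marks arterial cells: 5 of its 8 members measured in both libraries were at least 2-fold higher in arterial than in other endothelial cells in each library. Leaving out the top cell in each library gave 2.42 for Eln and 3.95 for Mgp. Eln and Mgp were not higher only in arterial cells, since venous-type cells had ratios of 4.94 and 2.33 and capillary cells of 4.29 and 6.47.

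Eln and Mgp were unevenly spread over single cells. Among cells with at least 2000 UMIs, Eln had a median of 2.54 UMIs per 10000 in 56 control cells (highest 36.98) and 13.00 in 26 knockout cells (highest 65.7). Mgp was at 0 in 44 of these control cells and in 9 of the knockout cells. With a limit of 10 UMIs of Eln and Mgp together per 10000, set after the data were seen, 13 of 62 control cells (21.0%, 11.7% to 33.2%) and 20 of 30 knockout cells (66.7%, 47.2% to 82.7%) were rich in these transcripts, a ratio of 3.18 (1.51 to 6.96). The limit splits a range rather than a type: 12 control and 8 knockout cells lay between 5 and 20 per 10000. Moving it to 5 or to 20 per 10000 gave ratios of 2.07 (1.09 to 3.91) and 2.89 (1.20 to 7.28), Eln alone gave 3.02 and Mgp alone 3.31 (0.954 to 12.8). The ratio was 2.77 after thinning to 2000 UMIs, 2.97 without the control cells that carried markers of another type, and 2.89 among cells with Xist UMIs only. It was 2.25 among the 9 and 8 cells with Y-linked UMIs only, where the interval (0.481 to 13.9) spans 1. In venous-type cells the rich share was 21.9% (42 of 192) and 44.1% (30 of 68), a ratio of 2.02 (1.22 to 3.30), and in capillary cells 2 of 92 and 3 of 21.

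Arterial cells with more Eln and Mgp held less Kdr in each library. Over cells with at least 5000 UMIs, the Spearman correlation of Eln plus Mgp with Kdr, each per 10000 UMIs, was -0.42 in 47 control cells and -0.70 in 21 knockout cells. Bmx ran the other way (0.79 and 0.80), as did Clu, a secreted chaperone also called clusterin (0.60 and 0.66), and Gja5 (0.52 and 0.48). Plvap, a protein of capillary fenestrae, was lower where Eln and Mgp were higher (-0.43 and -0.56). Cells of 1 library share that library and its depth, so these values describe the cells and carry no test. Within the rich cells the Kdr ratio was 0.443 (0.286 to 0.675), from 68 and 35 UMIs. Within the other cells it was 0.730 (0.532 to 0.980), from 478 and 49 UMIs. The larger share of rich cells thus moved with the Kdr difference over all arterial cells, and its part in that difference was not tested.

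**Figure D3:**
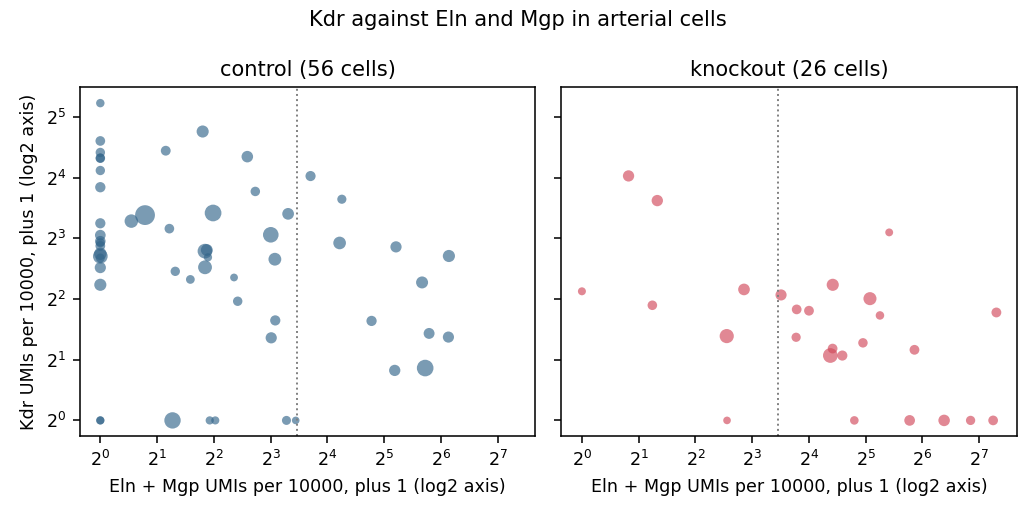
Each point is an arterial cell with at least 2000 UMIs, placed by Eln plus Mgp UMIs per 10000 plus 1 (x axis, log2 scale) and Kdr UMIs per 10000 plus 1 (y axis, log2 scale), with control cells on the left, knockout cells on the right and larger points for deeper cells. The dotted line is the limit of 10 per 10000, and a larger share of the knockout cells lies to its right, mostly low on the Kdr axis.

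The arterial identity genes stood on both sides of 1 between the libraries. Of 16 measured members of 18, 2 were at least 2-fold higher in knockout arterial cells, 1 at least 2-fold lower, 7 above 1 and 9 below 1, with a median log2 ratio of -0.19. Sox17 stood at 687 and 791 CPM, a ratio of 1.15 (0.978 to 1.35), and Cxcl12 at 3155 and 2936 CPM, a ratio of 0.931 (0.858 to 1.01). Gja4 had a ratio of 0.815 (0.68 to 0.972), which became 1.05 when each cell counted equally. Bmx had a ratio of 1.28 (0.997 to 1.64). Efnb2, the arterial ephrin, stood at 679.8 and 471 CPM, a ratio of 0.693 (0.566 to 0.843). Clu was the member with the highest ratio, at 99.8 CPM in control cells (74 UMIs) and 408 CPM in knockout cells (111 UMIs), a ratio of 4.09 (3.02 to 5.57). Clu was seen in 22 of 62 control and 17 of 30 knockout cells, and its ratio was above 1 among cells rich in Eln and Mgp (1.61) and among the other cells (3.0). In capillary cells the Clu ratio was 0.233 and in venous-type cells 1.37. Tmem100, a target of BMP9 and ALK1 signalling, had 48 and 37 UMIs and a ratio of 2.1 (1.33 to 3.3), but 0.981 after thinning. Gkn3, a gene of arterial endothelium in the brain, was the member that was lower: 125 and 5 UMIs, of which 72 were in the dividing control cell, and without the top cell of each library the ratio was 0.155.

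Of the Notch genes, 4 were above and 7 below a ratio of 1. Of 11 measured members of 17, 0 were at least 2-fold higher and 1 at least 2-fold lower, with a median log2 ratio of -0.17. The receptors Notch1 and Notch4 had ratios of 1.03 (0.818 to 1.29) and 1.38 (0.991 to 1.89). Among ligands, Dll4 stood at 232 and 147 CPM, a ratio of 0.634 (0.438 to 0.899), although thinning to 2000 UMIs gave 1.08, and Jag1 had a ratio of 0.887 (0.695 to 1.12). In venous-type cells Dll4 had a ratio of 2.11. Of the targets, Hes1 had a ratio of 0.987 (0.779 to 1.24) and Hey1, with 100 and 24 UMIs, of 0.655 (0.401 to 1.03). Rbpj, the DNA-binding partner of Notch, was the member below 0.5, with 66 and 11 UMIs and a ratio of 0.455 (0.217 to 0.867), against 1.67 in venous-type cells.

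Cxcr4, Trp53i11 and Lxn, of the tip cell list, were more than 2-fold lower in knockout arterial cells. Of 12 measured members of 16, 4 were at least 2-fold lower (Cxcr4, Trp53i11, Lxn and Apln), 0 at least 2-fold higher and 11 below 1, with a median log2 ratio of -0.70. Part of this list also marks arterial cells, and Unc5b and Dll4 are in the arterial identity list too. Of its 12 members measured in both libraries, 3 were at least 2-fold higher in arterial than in other endothelial cells in each library. Cxcr4 itself was 6.46-fold (control) and 2.59-fold (knockout) higher there. Cxcr4, the receptor for Cxcl12, stood at 286 CPM in control cells (212 UMIs) and 110.4 CPM in knockout cells (30 UMIs), a ratio of 0.386 (0.254 to 0.568). It was seen in 38 of 62 control and 14 of 30 knockout cells, and after thinning in 33.9% and 3.85% of cells, against 0.962% of glia in each library. The Cxcr4 ratio was 0.197 in capillary cells but 2.8 in venous-type cells. Unc5b stood at 421 and 221 CPM, a ratio of 0.525 (0.391 to 0.694). It was seen in 51 of 62 control and 15 of 30 knockout cells, and in 60.7% and 26.9% of thinned cells, against 2.16% and 3.21% of glia. Lxn, a carboxypeptidase inhibitor, had 101 and 16 UMIs and a ratio of 0.432 (0.238 to 0.736). Igfbp3, which binds insulin-like growth factors, stood at 1525 and 1085 CPM, a ratio of 0.712 (0.624 to 0.81). Trp53i11 had 77 and 6 UMIs and a ratio of 0.213 (0.0757 to 0.484), which was 0.353 without the control cells that carried markers of another type. Apln, the ligand apelin, cannot be read as lower: 87.5% of its 48 control UMIs were in 1 cell, and without the control cells that carried markers of another type its ratio was 2.41. Pgf was also decided by single cells, since 1 knockout cell held all 10 of its UMIs there. Its ratio was 0.779, and 1.21 without the control cells that carried markers of another type. Angpt2 had 13 control and 0 knockout UMIs and fell under the minimum.

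For 5 of these genes the ratio was also taken by Eln and Mgp content. Among rich cells the ratio was 0.135 for Cxcr4, 0.319 for Unc5b and 0.365 for Igfbp3, and among the other cells it was 0.952, 1.05 and 1.52. Trp53i11 had a ratio of 1.29 (0.148 to 15.4) among rich cells, from 2 and 3 UMIs, and 0.285 (0.0574 to 0.864) among the other cells, from 75 and 3 UMIs. Lxn had ratios of 0.538 and 0.502. These ratios rest on 13 control and 20 knockout rich cells, and the difference between the ranges was not tested. The dividing control cell was among the rich control cells and held 36631 of their 164003 UMIs. It also held 19 of their 70 Cxcr4 UMIs.

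Of 9 genes that respond to blood flow in endothelium, 7 had ratios above 1 and 0 passed 2-fold in either direction, with a median log2 ratio of 0.70. Klf2, a transcription factor induced by flow, stood at 1126 CPM in control cells (835 UMIs) and 1884 CPM in knockout cells (512 UMIs), a ratio of 1.67 (1.5 to 1.87). Among cells with at least 2000 UMIs, the Klf2 median was 10.05 UMIs per 10000 in the control library (quartiles 3.15 and 15.2) and 20.6 in the knockout library (quartiles 9.9 and 26.2), with overlapping ranges. Its relative Klf4 had a ratio of 1.63 (1.37 to 1.93), the lipid receptor S1pr1 of 1.65 (1.38 to 1.98) and the water channel Aqp1 of 1.69 (1.38 to 2.06). Nos3, the endothelial nitric oxide synthase, had 75 and 48 UMIs and a ratio of 1.75 (1.19 to 2.54), which was 0.975 among cells with Y-linked UMIs only. Edn1, which flow lowers, stood at 298 and 209.7 CPM, a ratio of 0.704 (0.516 to 0.945), and 1 knockout cell held 40.4% of its UMIs there. The mechanosensitive channel Piezo1 had a ratio of 0.888 (0.558 to 1.37). In venous-type cells the ratios of Klf2, Klf4 and Nos3 were 0.77, 1.15 and 0.803, while those of S1pr1 and Aqp1 were 1.69 and 2.43.

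Of BMP and TGF-beta genes, 15 of 18 were measured and 1, Tmem100, was at least 2-fold higher, with a median log2 ratio of 0.18. The co-receptor Eng had a ratio of 1.52 (1.23 to 1.88), but 0.958 after thinning. The receptors Acvrl1, Bmpr2 and Tgfbr2 had ratios of 1.13 (0.79 to 1.61), 1.13 (0.901 to 1.4) and 1.29 (1.06 to 1.56), and the target Id1 of 0.933 (0.729 to 1.18). Among ligands, Tgfb2 and Bmp2 had ratios of 1.84 and 1.86, but 1 knockout cell held 46.9% of the Tgfb2 UMIs and 1 held 53.6% of the Bmp2 UMIs, and without the top cell of each library the ratios were 1.2 and 1.49. With each cell counted equally Bmp2 was at 0.869.

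Of 13 measured basement membrane genes, 0 passed 2-fold in either direction and 9 were below 1, with a median log2 ratio of -0.17. The type IV collagen chains Col4a1 and Col4a2 stood at 2956 and 2112 CPM and at 1815 and 1299 CPM, ratios of 0.714 (0.651 to 0.784) and 0.715 (0.635 to 0.805). Col18a1, the source of endostatin, which marked arterial cells (6.24-fold and 5.88-fold over other endothelial cells), had a ratio of 0.704 (0.605 to 0.816), and Nid2 of 0.599 (0.41 to 0.855). Lama4 and Lamb1 had ratios of 0.714 (0.537 to 0.938) and 1.02 (0.719 to 1.43), and Sparc, a matrix-binding protein, was the member with the highest ratio, 1.34 (1.28 to 1.41). Among junction genes, 8 of 10 were measured and 0 passed 2-fold in either direction. Cldn5, the main endothelial claudin, stood at 1577 and 1814 CPM, a ratio of 1.15 (1.03 to 1.28), and 0.981 after thinning, and connexin 43 (Gja1) at 227 and 118 CPM, a ratio of 0.52 (0.344 to 0.762).

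Signals to the vessel wall stood on both sides of 1, with 5 above and 5 below. Of 10 measured members of 13, 0 were at least 2-fold higher and 1, Apln, at least 2-fold lower, with a median log2 ratio of 0.02. Pdgfb, which recruits mural cells, stood at 514 and 500.4 CPM, a ratio of 0.974 (0.795 to 1.19), and Tek, the angiopoietin receptor, had a ratio of 1.2 (0.875 to 1.63). The semaphorins Sema3g and Sema3f had ratios of 1.3 (1.06 to 1.58) and 1.66 (1.03 to 2.64).

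**Figure D4:**
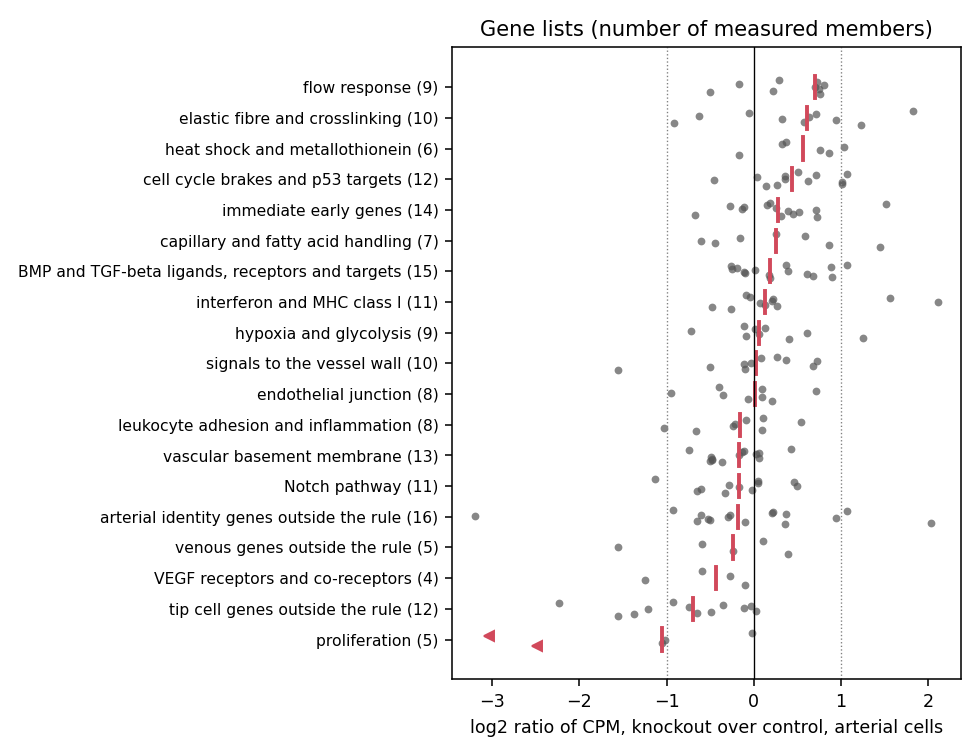
Knockout over control ratio in arterial cells (log2, x axis) of every measured member of the 19 gene lists, 1 grey point per gene, with the list median as a red bar and the number of measured members in parentheses. Red triangles are genes at 0 UMIs in the knockout library, drawn at the bound set by a floor of 3 counts, and dotted lines mark 2-fold. The flow response and elastic fibre medians lie highest, and the tip cell and proliferation medians lowest.

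Proliferation could hardly be read in these cells. Only 5 of 28 proliferation genes had 30 UMIs, and 94.0% of the Top2a and 76.1% of the Mki67 UMIs of the control library were in the 1 dividing cell, against 0 UMIs of both genes in the knockout library. The list median of -1.05 includes Top2a and Mki67 at 0. Over the other measured members the median was -1.02, and 0.214 with each cell counted equally. Among cell cycle brakes and p53 targets, 12 of 17 were measured, 3 were at least 2-fold higher (Cdkn1a, Btg2 and Tob1), 0 at least 2-fold lower and 11 above 1, with a median log2 ratio of 0.43. Cdkn1a, the inhibitor p21, had 27 and 20 UMIs and a ratio of 2.02 (1.07 to 3.74), against 13.04 in capillary cells and 10.8 in venous-type cells. After thinning it was seen in 7.14% and 19.2% of arterial cells but in 20.2% and 42.0% of glia, so at this depth the arterial share did not exceed the glial one. Btg2, an antiproliferative gene that dissociation can also induce, stood at 441 and 890.4 CPM, a ratio of 2.02 (1.7 to 2.39), and 0.838 among cells with Y-linked UMIs only.

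Genes that respond to tissue dissociation were read as 2 lists. Heat shock genes had a median log2 ratio of 0.57 over 6 measured members, 5 of them above 1, but of -0.0029 among cells with Y-linked UMIs only. Hspa1b, a heat-inducible chaperone whose reads can be shared with its near-identical copy Hspa1a, was the member past 2-fold, at 575 and 1174 CPM, a ratio of 2.04 (1.76 to 2.37), but 1 knockout cell held 56.7% of its UMIs and without the top cells the ratio was 1.21. Immediate early genes had a median of 0.28 over 14 measured members, 10 of them above 1. Among the 9 and 8 cells with Y-linked UMIs only that median was -1.33. Nr4a2 was at least 2-fold higher, a ratio of 2.85 (1.85 to 4.41), and Fos, Junb and Egr1 had ratios of 1.36 (1.12 to 1.64), 1.19 (1.01 to 1.4) and 0.626 (0.43 to 0.891). In venous-type cells these 3 had ratios of 2.68, 2.66 and 1.85. The part of dissociation in the arterial values was not tested.

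Genes with a ratio above 1 were ranked where at least 10 knockout arterial cells held a UMI, no cell held over 25% of the UMIs there, and the level was at least 50% of that in each other cell class. Among the 1935 genes that met these conditions, Ccdc85b, Mgp, Clu, Adgrg1, Lmcd1, Nebl, Sgk1, Eln, Abr, Timp3, Ctla2a and C1galt1 had the interval bounds farthest above 1. Ifit3 and Nr4a2, whose bounds nearest 1 were 1.99 and 1.85, could not enter, since 1 knockout cell held 42.1% and 34.8% of their UMIs there. Nebl, the leading arterial gene, stood at 116 CPM in control cells (86 UMIs) and 357 CPM in knockout cells (97 UMIs), a ratio of 3.08 (2.28 to 4.16). It was seen in 20 of 62 control and 20 of 30 knockout cells. Among rich cells the Nebl ratio was 4.55 (2.69 to 8.16). Among the others it was 0.722 (0.280 to 1.57), from 69 and 7 UMIs, so that interval spans 1. Outside endothelium, at lower levels, Nebl had ratios of 4.08 in glia, 1.75 in mural, 0.796 in immune and 1.71 in the remaining non-endothelial cells. Adgrg1, an adhesion receptor, had 25 and 43 UMIs and a ratio of 4.69 (2.8 to 8.02). It was not particular to arterial cells, with ratios of 4.61 (2.22 to 9.30) in capillary and 1.65 in venous-type cells. Outside endothelium the Adgrg1 ratio was 1.92 in immune cells, 2.28 in glia, 2.1 in mural cells and 3.79 in the remaining non-endothelial cells. Lmcd1, a LIM-domain cofactor, had 25 and 40 UMIs and a ratio of 4.37 (2.58 to 7.51). Sgk1, a kinase induced by glucocorticoids, stood at 143 and 397 CPM, a ratio of 2.78 (2.11 to 3.67), against 1.16 and 1.36 in capillary and venous-type cells, 1.8 in mural cells and 1.86 in the remaining cells, which were not endothelial and had 0 UMIs of Ptprc, Sox10 and Notch3. Timp3, an inhibitor of matrix proteases, stood at 624 and 1365 CPM, a ratio of 2.19 (1.9 to 2.51), against 0.888 and 1.08 in capillary and venous-type cells. Outside endothelium Timp3 was higher too, at 2.14 in mural cells, 1.97 in the remaining cells and 1.4 in glia. Abr and C1galt1 had ratios of 3.36 (2.02 to 5.64) and 3.1 (1.83 to 5.3), with 30 and 37 UMIs and 29 and 33 UMIs. Ctla2a, a cathepsin inhibitor, had ratios of 2.38 in arterial, 2.07 in capillary and 2.66 in venous-type cells. Ccdc85b was not particular to arterial cells, with a ratio of 5.8 there, 5.29 in immune cells and 8.12 in glia.

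Among the 2317 genes that had a ratio below 1 and met the same conditions in the control library, those with the interval bounds farthest below 1 were AY036118, Cpq, Trp53i11, Dap3, Kdr, Tmsb10, Cxcr4, 8430408G22Rik, Trappc13, Npr3, Oaz2 and Nmt1. Tmsb10, an actin-binding thymosin, stood at 2319.8 CPM in control cells (1720 UMIs) and 1163 CPM in knockout cells (316 UMIs), a ratio of 0.501 (0.443 to 0.565), against 0.819 in capillary and 0.812 in venous-type cells. 8430408G22Rik (also called Depp1) stood at 568 CPM in control cells (421 UMIs) and 254 CPM in knockout cells (69 UMIs), a ratio of 0.447 (0.341 to 0.578), while venous-type cells had a ratio of 2.18. Npr3, the clearance receptor for natriuretic peptides, which marked arterial cells (18.7-fold over other endothelial cells in the control library), had 71 and 7 UMIs and a ratio of 0.269 (0.104 to 0.584). Cpq had 33 control and 0 knockout UMIs and was at least 4.03-fold lower when the class is given a floor of 3 counts. Dap3, Trappc13, Oaz2 and Nmt1, which serve general cell functions, had ratios of 0.136, 0.186, 0.371 and 0.327 from 2, 3, 20 and 12 knockout UMIs. Nmt1 was below 1 in every other class too, from 0.462 in venous-type cells to 0.780 in capillary cells. Oaz2 had ratios of 0.615 in capillary, 0.422 in venous-type, 0.729 in immune and 0.844 in mural cells. It was at 1.12 in glia and 1.11 in the remaining cells. AY036118, a long non-coding transcript, was lower in every class: its ratio was 0.134 in arterial, 0.182 in capillary, 0.305 in venous-type and 0.129 in immune cells and 0.176 in glia.

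**Figure D5:**
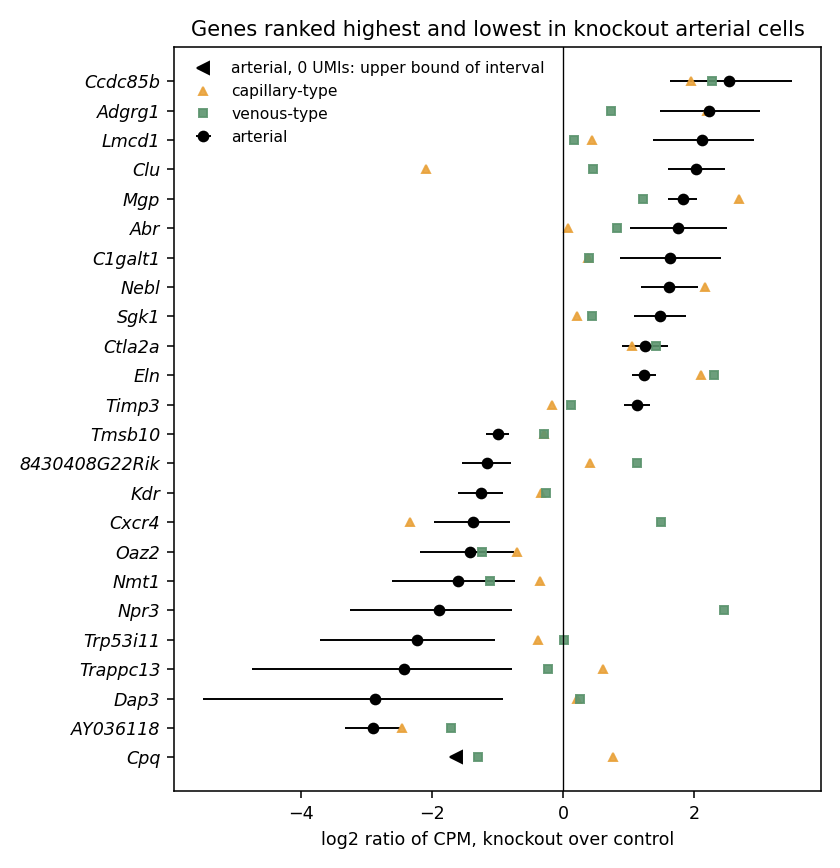
Knockout over control ratio (log2, x axis) in arterial cells, with exact 95% counting intervals, for the 12 genes ranked highest and the 12 ranked lowest, beside the ratios in capillary (orange) and venous-type cells (green). The arrowhead is Cpq, at 0 UMIs in the knockout library, drawn at the upper bound of its interval. Kdr, Tmsb10, Sgk1, Timp3, Ccdc85b and AY036118 lie farther from 0 in arterial cells than in both other endothelial types. All of these but Timp3, whose ratio was 0.888 in capillary cells, lie on the same side in all 3 types.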

How the data were processed

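The deposited values are UMI counts per gene and barcode, not normalised, in 1 filtered matrix of 31053 genes per library. Per the file headers, Cell Ranger 5.0.0 wrote the control matrix and Cell Ranger 6.0.1 the knockout matrix, whereas Cell Ranger 6.0.1 and mm10 are named for both in the submitters' processing notes. A barcode needed 500 genes, 1000 UMIs and a mitochondrial share of 10% or less (2329 control and 1683 knockout barcodes passed). Python 3.11.15, numpy 2.4.6, scipy 1.17.1, pandas 2.3.3 and matplotlib 3.10.9 were used. Scrublet in scanpy 1.11.5 called 20 control and 4 knockout doublets, which stayed in the main values and were left out in an alternative.

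UMIs were summed per type and library. Ratios carry exact conditional Poisson intervals and shares Clopper-Pearson intervals. The interval code was tested on simulated data. Genes needed 30 UMIs over both libraries. Cells were thinned to 2000 UMIs with seed 11. The members and gene lists were chosen with earlier results of these data known.

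Named genes are members of the 19 lists, and 12 genes per ranking by the interval bound nearest 1. Genes ranked between libraries needed a UMI in 10 arterial cells of the higher library, at most 25% of their UMIs there in 1 cell, and a level of at least 50% of that in each other cell class. Mitochondrial, ribosomal, haemoglobin, sex-linked and rule genes stayed out. The other cell filters, marker rules, depths, scalings and weights tried were planned, except leaving out the cells that carried other markers, leaving out the dividing cell, and the split by Eln and Mgp, which were added after seeing the data.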

Additional observations from a re-analysis of the deposited data

Results flagged for a closer look

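Members of the gene lists and the genes ranked between libraries were compared with capillary and venous-type cells. For 8 of them the knockout over control ratio in arterial cells pointed the other way from that in another endothelial type. Each ratio was at least 1.5-fold from 1, with both counting intervals clear of 1. The comparison was not made over all genes, so it is not known whether 8 is many or few. The differences between the types were not tested, and each type had 1 library per genotype. Against venous-type cells, Cxcr4 had a ratio of 0.386 in arterial and 2.80 (1.62 to 4.73) in venous-type cells, and 8430408G22Rik of 0.447 and 2.18 (1.57 to 2.99). Rbpj had ratios of 0.455 and 1.67 (1.16 to 2.37), Dll4 of 0.634 and 2.11 (1.44 to 3.04) and Egr1 of 0.626 and 1.85 (1.47 to 2.31). The arterial Dll4 ratio did not keep its side in every setting, at 1.08 after thinning. Bmp2 ran the opposite way, with 1.86 in arterial cells, where 1 knockout cell held 53.6% of its UMIs, and 0.426 (0.190 to 0.837) in venous-type cells. With each cell counted equally the arterial Bmp2 ratio was 0.869. Against Esm1-type capillary cells, Clu had ratios of 4.09 and 0.233 (0.0276 to 0.881), and Sema3f of 1.66 and 0.454 (0.203 to 0.888). Capillary Clu stood at 57.7 CPM in control and 13.5 CPM in knockout cells, so its ratio there rests on very few knockout UMIs.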

How the results depend on the processing

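The arterial share ratio of 1.36 kept its direction in each of the settings that changed the choice of cells. Kdr was lower in the knockout library in every setting tried. Its ratio of 0.420 was 0.301 when Mecom was left out of the rule, 0.307 in cells with Y-linked UMIs only and 0.730 in cells poor in Eln and Mgp. Counts of genes depended on depth and on the count minimum. The 154 genes at least 2-fold higher and 276 at least 2-fold lower became 33 and 41 after thinning, 81 and 79 in cells with Y-linked UMIs, 370 and 452 with each cell equal, 260 and 486 with a minimum of 20 UMIs, and 29 and 42 with 100 UMIs. The 127 genes higher in arterial than in other endothelial cells in both libraries became 35 after thinning, 58 in cells with Y-linked UMIs and 45 with 100 UMIs. Fewer cells, fewer UMIs or another minimum leave fewer or more genes measured, which those settings do by construction. The number of genes measured in those settings is not given here. Their counts therefore do not show whether the share of genes past 2-fold rose or fell. With each cell equal, the ratios between libraries covered the same 5516 genes as in the main setting. Over 195 genes, 268 of 3449 alternative ratios, in 106 genes, lay on the other side of 1 from the main ratio. For 235 of them the main counting interval spanned 1. The other 33 belonged to genes whose interval was clear of 1, and a further 330 of the 3449 lay outside the main interval without being among these 33. After thinning the 33 included Btg1 at 0.960, Cldn5 at 0.981, Dll4 at 1.08, Eng at 0.958, Fos at 0.892, Id3 at 0.849 and Tmem100 at 0.981. Without Mecom in the rule Ifitm3 was at 0.996, and without Jag2 Fabp4 was at 0.645. With Xist cells only, Apln was at 3.83, Bst2 at 1.06, Fabp4 at 0.256, H2-D1 at 0.984 and Tgfb2 at 0.972. With Y-linked UMIs only (9 and 8 cells), Btg2 was at 0.838, Col8a1 at 2.59, Edn1 at 1.14, Fos at 0.407, Hspa1a at 0.663, Hspa1b at 0.251, Hspa8 at 0.998, Ier2 at 0.664, Ier3 at 0.497, Ifitm3 at 0.992, Junb at 0.387, Nid2 at 1.08, Nos3 at 0.975, Sema3g at 0.923 and Stmn1 at 1.90, and the heat shock median log2 ratio was -0.0029. With each cell equal, Bmp2 was at 0.869, Gja4 at 1.05 and Stmn1 at 1.21. The proliferation median without Top2a and Mki67 was then 0.214, against -1.02 in the main setting. Without cells that carried other markers Apln was at 2.41. The median log2 ratios of 12 of the 19 lists had the other sign in at least 1 setting, those of the flow response, elastic fibre, basement membrane, Notch, tip cell, VEGF receptor and capillary lists in none. The cause of these changes of side was not tested. No paired analysis was possible because each genotype had 1 library.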

Other observations

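Venous genes outside the rule were low in arterial cells. Of 8 measured, 6 were at least 2-fold lower than in other endothelial cells in both libraries, against 122 of all 5130 genes. The rule kept cells whose arterial sum exceeded the venous sum, so these ratios describe the class and are no independent test of it. Nr2f2, the transcription factor of veins, stood at 75.5 and 25.8 CPM in control and knockout arterial cells, a ratio of 0.341 (0.131 to 0.75), which was 0.512 without the control cells that carried markers of another type and ran from 0.262 to 0.715 over the settings tried. Vcam1, an adhesion molecule for leukocytes, was the member that was higher in arterial cells, 6.72-fold in the control and 2.85-fold in the knockout library. Of the capillary and fatty acid genes, 7 of 13 were measured. Cd36, a fatty acid transporter, had 36 and 36 UMIs in arterial cells and a ratio of 2.73 (1.67 to 4.46). Fabp4, a fatty acid carrier, had 90 and 60 UMIs, but 53.3% and 60.0% of them were in 1 cell of each library.

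Interferon and MHC class I genes had a median log2 ratio of 0.12 over 11 members. Irf7, an interferon regulator, had 25 and 27 UMIs and a ratio of 2.95 (1.65 to 5.29), and Ifit3 had 12 and 19 UMIs and a ratio of 4.32 (1.99 to 9.76). Of the 11 members, 4 were at least 2-fold higher in arterial than in other endothelial cells in control, 4 in knockout and 3 in both libraries. Over all 5130 genes these counts were 223, 291 and 127. H2-K1, Ifit1 and Isg15 were among the 4 in the control library, at 2.79-fold, 6.96-fold and 2.51-fold. Of 9 measured hypoxia and glycolysis genes, Eno1, a glycolytic enzyme, was at least 2-fold higher in the knockout library, a ratio of 2.37 (1.51 to 3.71), while Pgk1, Ldha and Gapdh had ratios of 1.01 (0.542 to 1.79), 1.04 (0.756 to 1.41) and 0.942 (0.749 to 1.18). Leukocyte adhesion and inflammation genes had a median log2 ratio of -0.16 over 8 measured members, which was 0.312 under the stricter cell filter and 0.116 after thinning, so the side of 0 depended on the setting. The 1 member past 2-fold, Cxcl1, had 61.5% of its control UMIs in 1 cell.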
